A study of Mus musculus with 18 samples.

Results

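The scaffold genes of the postsynaptic density described here are Dlg4, Dlg2, Dlg3, Dlgap1, Shank1, Shank2, Shank3, Homer1 and Homer2. Every probe set on the array whose platform annotation names one of these symbols alone was taken. This gave 24 probe sets for 8 of the 9 genes, out of 18193 gene symbols on the array. Dlgap1 and Homer1 had 6 probe sets each, Dlg4, Dlg2 and Homer2 had 3 each, and Dlg3, Shank1 and Shank3 had 1 each. No probe set in the table used here is listed under Shank2, so that gene was not analysed. The filter on dim probe sets kept 23 of the 24 probe sets, for 7 genes, and left out the single Shank1 probe set.

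The postsynaptic density is the protein sheet under the membrane of excitatory synapses that holds glutamate receptors opposite the sites of transmitter release. Membrane-associated guanylate kinases (PSD-95, encoded by Dlg4, PSD-93, encoded by Dlg2, and SAP102, encoded by Dlg3) bind receptors and adhesion proteins. GKAP, encoded by Dlgap1, links them to the Shank proteins, and Shank binds Homer, which in turn holds metabotropic glutamate receptors and calcium channels of internal stores. PSD-95 and PSD-93 are anchored at the membrane by palmitate, the lipid that the enzyme encoded by Ppt1 removes from proteins in the lysosome.

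RNA of mice without Ppt1 and of wild-type mice was measured at 3, 5 and 8 months of age, with 1 Affymetrix array per sample and 3 arrays for each genotype at each age, 6 groups in all. The 3 knockout groups and the 3 wild-type groups carried no other named allele or treatment, and neither the mouse strain nor the design of the knockout is given in the sources used here. A group held 1 male and 2 females, apart from the 8-month knockouts with 2 males and 1 female. Arrays of different sex in a group come from different animals, but nothing in the labels says so for arrays of the same sex. The p-values therefore measure a spread between samples that may be partly technical.

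The deposited values are array signals on a linear scale, and the array medians lay between 43.2 and 46.1. Ppt1 separated the genotypes on 18 of 18 arrays, with a highest knockout signal of 23.4 and a lowest wild-type signal of 543 for its brightest probe set. The labels name both brain and cochlea as the tissue. All 15 neuron markers were bright enough to test (Snap25 read at least 7682 on every array), whereas only 2 of the 9 cochlea markers with a probe set were. Those 2, the hair cell genes Otof and Myo7a, averaged 45.8 and 111 and were above the background of bacterial control probe sets on every array, while the other 7 lay at or below it on 9 to 15 of the 18 arrays. The 8-month knockout arrays stood apart from each other. On the main axis of variation (24.2% of the variance) replicates 1 and 2 lay at 50.7 and 45.6 and replicate 3 at 9.9, against 11.1 to 17.7 for the 5-month knockouts and -18.9 to -11.6 for the wild type. Calls at 8 months are therefore also given with some of these arrays left out. Leaving out replicates 1 and 2 leaves 1 knockout array at 8 months, whose spread cannot be measured. For that fit only differences are given.

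Averaged over the 3 ages, some probe sets of Homer1, Dlg4 and Dlgap1 fell in the knockout by small amounts. Those of Dlg2, Dlg3, Shank3 and Homer2 did not pass, though Shank3 1419137_at and Dlg2 1421199_at narrowly missed (limma adjusted p = 0.051 and 0.0543). Genotypes were compared within each age on the log2(signal + 16) scale and the 3 differences averaged. Of the 23 probe sets tested, 6 fell (limma, Benjamini-Hochberg adjusted p under 0.05) and 0 rose. Over the 27022 probe sets tested on the array, 12.6% passed, 6.02% as lower and 6.62% as higher. The 6 belonged to 3 genes, with 4 from Homer1 and 1 each from Dlg4 and Dlgap1. The difference was negative for 21 of the 23 probe sets and for the brightest probe set of all 7 genes, with a median of -0.19 and a range from -0.43 to 0.09, whereas the median over all tested probe sets was -0.013 and 53.6% of them were negative. At an unadjusted p under 0.05, 13 of the 23 were lower and 0 higher, against 6885 of the 27022 in either direction.

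**Figure D1:**
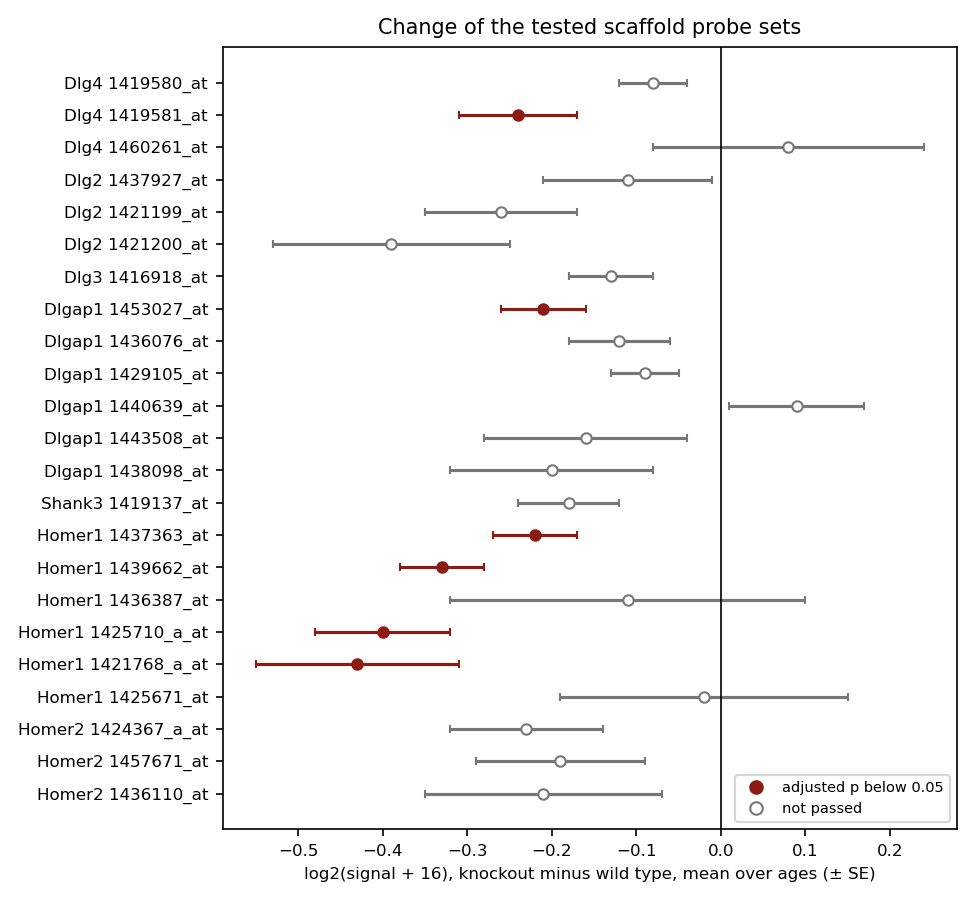
Difference of the knockout from the wild type, averaged over ages, for the 23 tested probe sets, on the log2(signal + 16) scale; points are fitted differences and bars their standard errors. Filled red points passed at an adjusted p under 0.05 (6 probe sets, all below 0), and 21 of the 23 points lie below 0.

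Dlg4 encodes PSD-95, the most abundant scaffold of the excitatory synapse. Its probe set 1419581_at fell by 0.24 ± 0.07 on the log2 scale (SE, adjusted p = 0.0243), with signals of 292 to 496 (median 393) on the 9 knockout arrays and 385 to 518 (median 462) on the 9 wild-type arrays. The ranges overlapped, and 3 knockout arrays read less than the wild-type minimum. Without the 8-month knockout replicates 1 and 2 the difference was -0.12. The call was lost without the variance trend and without several single arrays of either genotype, 8-month knockout replicate 2 among them. The brighter probe set 1419580_at read 492 ± 21.5 in the knockout and 522 ± 28.4 in wild-type mice (SD over 9 arrays each), and its difference of -0.08 ± 0.04 did not pass (adjusted p = 0.296). The remaining, dim Dlg4 probe set, 1460261_at, read 36.8 ± 15.4 and 32.5 ± 10.9, and lay at or below the control background on 2 of 18 arrays.

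At 8 months, probe set 1419581_at of Dlg4 read 292, 325 and 435 in the knockout and 440.1, 511 and 446 in the wild type. The groups did not overlap, though knockout replicate 3 came close. The fall was 0.40 ± 0.12 (adjusted p = 0.0397). Without knockout replicates 1 and 2 the difference was -0.04, and without replicate 3 it was -0.56 (adjusted p = 0.000597). The call was lost without replicate 1 (-0.29, adjusted p = 0.171) or replicate 2 (-0.31, adjusted p = 0.235). It was also lost with no filter, no variance trend or only the groups compared, and without any single 8-month wild-type array. At 3 and 5 months the differences were -0.17 and -0.16 and did not pass. The other 8-month Dlg4 differences were -0.16 ± 0.08 for 1419580_at (limma adjusted p = 0.216) and 0.40 ± 0.27 for the dim 1460261_at (adjusted p = 0.383).

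Dlg2 encodes PSD-93, a close relative of PSD-95. None of its 3 probe sets passed in the mean over ages. The brightest, 1437927_at, read 451 ± 105 in the knockout and 480.3 ± 87 in wild-type mice (SD over 9 arrays each), a difference of -0.11 ± 0.10 (adjusted p = 0.524), and it was positive at 5 months (0.19). Probe set 1421199_at gave -0.26 ± 0.09 (adjusted p = 0.0543), and 7 of 9 knockout arrays read less than the wild-type minimum of 87.5. This difference passed under 10 of 30 alternatives. At 8 months probe set 1421200_at fell by 1.05 ± 0.25 (adjusted p = 0.00951). It read 20, 45.1 and 58.2 in the 8-month knockout and 91.8, 117 and 92.1 in the 8-month wild type, so the groups did not overlap and knockout replicate 1 was the lowest of the 18 arrays. The 3-month values for this probe set were 69.7, 66.9 and 80.1 against 81.7, 97.2 and 48.4, and overlapped. The test of 8 months against 3 months did not pass (-1.03 ± 0.36, adjusted p = 0.17). Without knockout replicate 1 the difference at 8 months was -0.78 (adjusted p = 0.0537), and without replicates 1 and 2 it was -0.60. The control background on replicate 1 was 13.2, not far below the signal of 20. The other 8-month Dlg2 differences were -0.35 ± 0.17 for 1437927_at (limma adjusted p = 0.205) and -0.24 ± 0.16 for 1421199_at (adjusted p = 0.347).

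Dlg3 encodes SAP102, the relative of PSD-95 that carries NMDA receptors early in life. Its single probe set, 1416918_at, read 469 ± 26.2 in the knockout and 513 ± 34.6 in wild-type mice (SD over 9 arrays each). The difference of -0.13 ± 0.05 did not pass (adjusted p = 0.0885), and its sign was negative at every age. At 8 months the knockout arrays read 473, 432 and 461 and the wild-type arrays 589, 519 and 477, without overlap (-0.22 ± 0.09, adjusted p = 0.095). Without knockout replicates 1 and 2 the difference was again -0.22.

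Dlgap1 encodes GKAP, the link between PSD-95 and Shank. The brightest of its 6 probe sets, 1453027_at, fell by 0.21 ± 0.05 in the mean over ages (adjusted p = 0.0065), a 1.16-fold lower level. The 9 knockout arrays read 692 to 876 (median 818) and the wild-type arrays 808 to 1067 (median 926). At 5 months it read 820.3, 692 and 700.3 in the knockout and 927, 872 and 1067 in the wild type. These groups did not overlap, and the fall of 0.37 ± 0.09 passed (adjusted p = 0.0212). That call was lost when knockout replicate 2 or 3 or wild-type replicate 3 of that age was left out (adjusted p up to 0.125 over the alternatives). At 8 months the groups again did not overlap, with 857, 760 and 818 against 1005, 934 and 926 (-0.24 ± 0.09, adjusted p = 0.0764, and -0.22 without knockout replicates 1 and 2). At 3 months the groups overlapped, with 794, 876 and 849 against 808, 909 and 849 (-0.03 ± 0.09).

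The other 5 probe sets of Dlgap1 did not pass in any comparison. The next brightest, 1436076_at and 1429105_at, differed by -0.12 and -0.09 over the ages, and the dim ones 1443508_at and 1438098_at by -0.16 and -0.20. Probe set 1440639_at went the other way, with 165 ± 22.6 in the knockout and 152 ± 16.4 in wild-type mice (SD over 9 arrays each, 0.09 ± 0.08, adjusted p = 0.512).

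**Figure D2:**
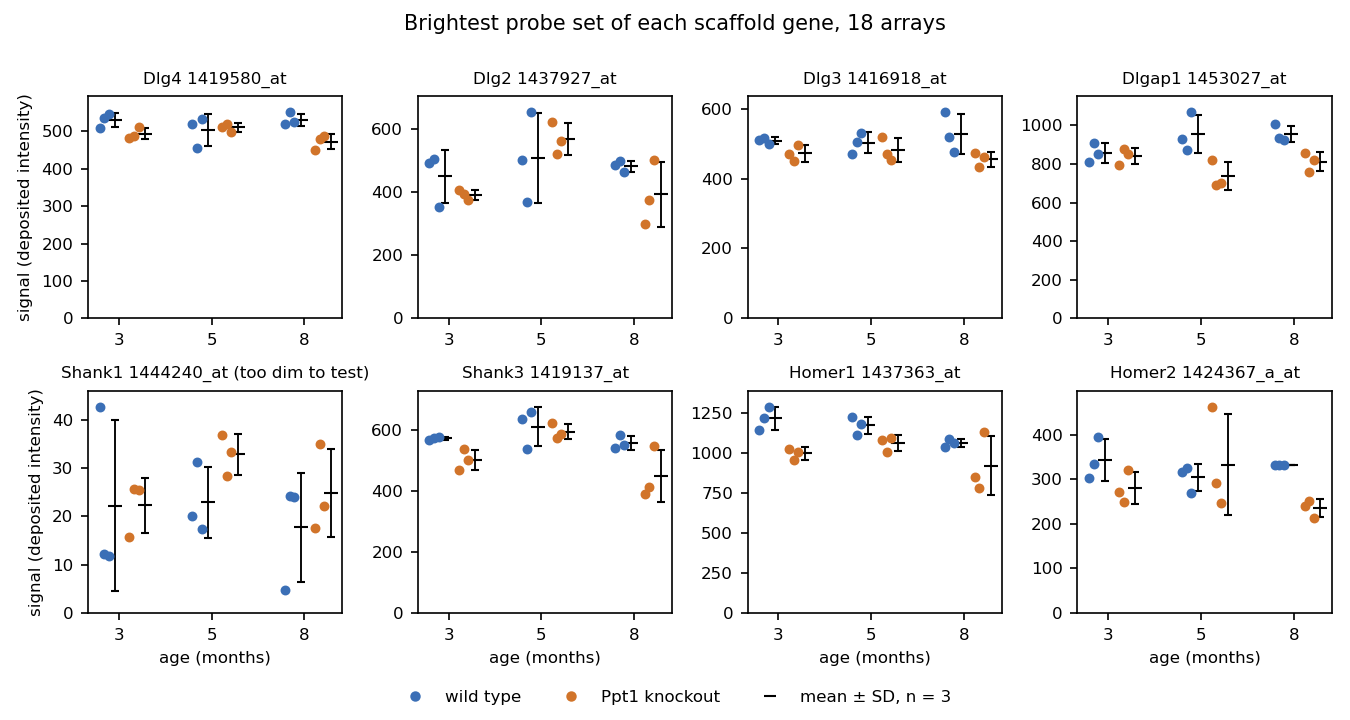
Signal of the brightest probe set of each scaffold gene with a probe set, by age, on linear axes from 0; points are arrays, black bars the mean ± SD of 3 arrays. Homer1 1437363_at lies lower in the knockout at 3 and 5 months without overlap, Dlgap1 1453027_at at 5 and 8 months, and Shank1 reads at most 42.6.

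Shank proteins are the master scaffolds of the deeper layer of the density. Shank3 had 1 probe set, 1419137_at, with 514 ± 79.1 in the knockout and 579 ± 41.5 in wild-type mice (SD over 9 arrays each). The mean over ages was -0.18 ± 0.06 and missed the threshold (adjusted p = 0.051). The probe set passed in that comparison under 12 of 31 alternatives. At 8 months it read 388, 411 and 546 in the knockout and 539, 583 and 548 in the wild type, so replicate 3 lay inside the wild-type range and the other 2 far below it. The fall there passed narrowly (0.32 ± 0.11, adjusted p = 0.0499). It was -0.02 without knockout replicates 1 and 2. The call was lost without replicate 1 (-0.23, adjusted p = 0.208) or replicate 2 (-0.26, adjusted p = 0.26). It was also lost with a pseudocount of 1, no filter or no variance trend, and without any single 8-month wild-type array. At 3 months the knockout (468, 535 and 499) lay below the wild type (566, 572 and 575) without overlap, with a difference of -0.19 ± 0.10 that did not pass. At 5 months the groups overlapped (-0.04 ± 0.10).

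The Shank1 probe set 1444240_at read 4.75 to 42.6 over the 18 arrays, with 26.7 ± 7.48 in the knockout and 20.9 ± 11.4 in wild-type mice (SD over 9 arrays each). These signals are close to the background of the bacterial controls (9.24 to 19.2 per array), and 2 of the 18 lay at or below it. No difference in Shank1 was tested.

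Homer1 encodes a Homer protein whose transcripts come in a long and a short kind. The long proteins carry a coiled coil that joins them into tetramers and bridges Shank to metabotropic glutamate receptors. The short form, Homer1a, lacks that coil, ends earlier within the gene, and is induced by neuronal activity as an immediate early gene. The files hold no probe sequences or positions, so which form each of the 6 probe sets reads cannot be settled here and none is assigned. No probe set is assigned to either of the 2 Homer1 promoter windows. The upstream window is shown. It covers 250 bases before to 50 after the start, at chr13:93303507-93303806 on the plus strand of GRCm38.p6, from RefSeq, with each TGACG (the core of a cAMP response element, searched on both strands) in capitals.
Homer1 promoter: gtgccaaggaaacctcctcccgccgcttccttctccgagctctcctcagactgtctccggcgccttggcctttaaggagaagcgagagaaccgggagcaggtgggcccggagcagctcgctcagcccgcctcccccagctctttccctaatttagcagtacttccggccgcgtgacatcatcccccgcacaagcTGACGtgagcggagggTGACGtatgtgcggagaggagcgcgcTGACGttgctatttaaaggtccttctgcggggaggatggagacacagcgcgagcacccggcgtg
This window holds TGACG 3 times. Of 32851 RefSeq promoter windows of 300 bases, 20.8% hold it at least once and 1.03% at least 3 times. Among the 15 windows of the scaffold genes, 3 held it, 1 each of Homer1, Dlg4 and Dlg3. The full palindrome TGACGTCA (in 1.79% of all windows) and the AP-1 site TGACTCA (5.2%) were in none of the 15, which says only that these letters are not in these windows.

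In the mean over ages, 4 of the 6 Homer1 probe sets fell. Probe set 1439662_at fell by 0.33 ± 0.05 (adjusted p = 7.5e-05), 1425710_a_at by 0.40 ± 0.08 (adjusted p = 0.00218), 1421768_a_at by 0.43 ± 0.12 (adjusted p = 0.0185) and the brightest, 1437363_at, by 0.22 ± 0.05 (adjusted p = 0.0085). On the scale of the fit these are levels 1.26-, 1.32-, 1.35- and 1.17-fold lower. The remaining probe sets, 1436387_at and 1425671_at, differed by -0.11 ± 0.21 and -0.02 ± 0.17 and did not pass. The latter was dim, with a mean signal of 30.8 over all arrays. Over the alternatives, the calls of 1439662_at (-0.37 to -0.30) and 1425710_a_at (-0.44 to -0.32) were kept. That of 1437363_at (-0.27 to -0.11) was kept in all fits with more than 1 knockout array at 8 months. The call of 1421768_a_at (-0.51 to -0.24) was lost without the variance trend, 8-month knockout replicate 2 or 5-month wild-type replicate 1. Without the 8-month knockout replicates 1 and 2, 1436387_at differed in the other direction, by 0.41.

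Homer1 probe set 1439662_at read 398, 417 and 395 in the 3-month knockout and 545, 652 and 600 in the 3-month wild type. At 5 months it read 499.8, 469.9 and 469 against 569, 544 and 558, and at 8 months 389.8, 399 and 433 against 515, 499.6 and 436. The knockout lay below the wild type without overlap at every age, with the widest gap at 3 months and 433 against 436 at 8 months. The differences at 5 and 8 months, -0.21 and -0.24, did not pass (limma adjusted p = 0.257 and 0.0751). Of all tested probe sets, 8.61%, 10.1% and 14.3% lay below without overlap at 3, 5 and 8 months. The wild-type minimum of all ages was 436, and 6 of the 9 knockout arrays read less than that. Probe set 1425710_a_at read 161, 159 and 132 in the knockout and 220.3, 205 and 236 in the wild type at 3 months, and 157, 134 and 175 against 183, 183 and 215 at 8 months. Those groups did not overlap either, while at 5 months (158, 136 and 185 against 211, 258 and 174) they did. Without the 8-month knockout replicates 1 and 2, the 8-month difference moved from -0.24 to -0.16 for 1439662_at and from -0.31 to -0.14 for 1425710_a_at.

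At 3 months, where the knockout arrays were alike, only 1 member probe set passed, Homer1 1439662_at, with a fall of 0.55 ± 0.08 (adjusted p = 0.000837), 1.46-fold lower. Over all tested probe sets 0.274% were called lower at that age. The groups did not overlap for 8 of the 23 probe sets, all with the knockout below, against 8.61% of all probe sets, and 5 of the 8 were of Homer1. Probe set 1437363_at read 1026, 954 and 1008 against 1145, 1215 and 1286 (-0.28 ± 0.09, adjusted p = 0.222), and 1421768_a_at read 138, 124 and 131 against 199, 208 and 244 (-0.66 ± 0.20, adjusted p = 0.175). The calls depended on which arrays set the spread. When only the 6 arrays of that age were fitted, 5 of the 6 Homer1 probe sets passed, all lower, and the same number passed with array weights. On the whole array 468 and 668 probe sets passed in those fits, against 258 in the main fit.

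**Figure D3:**
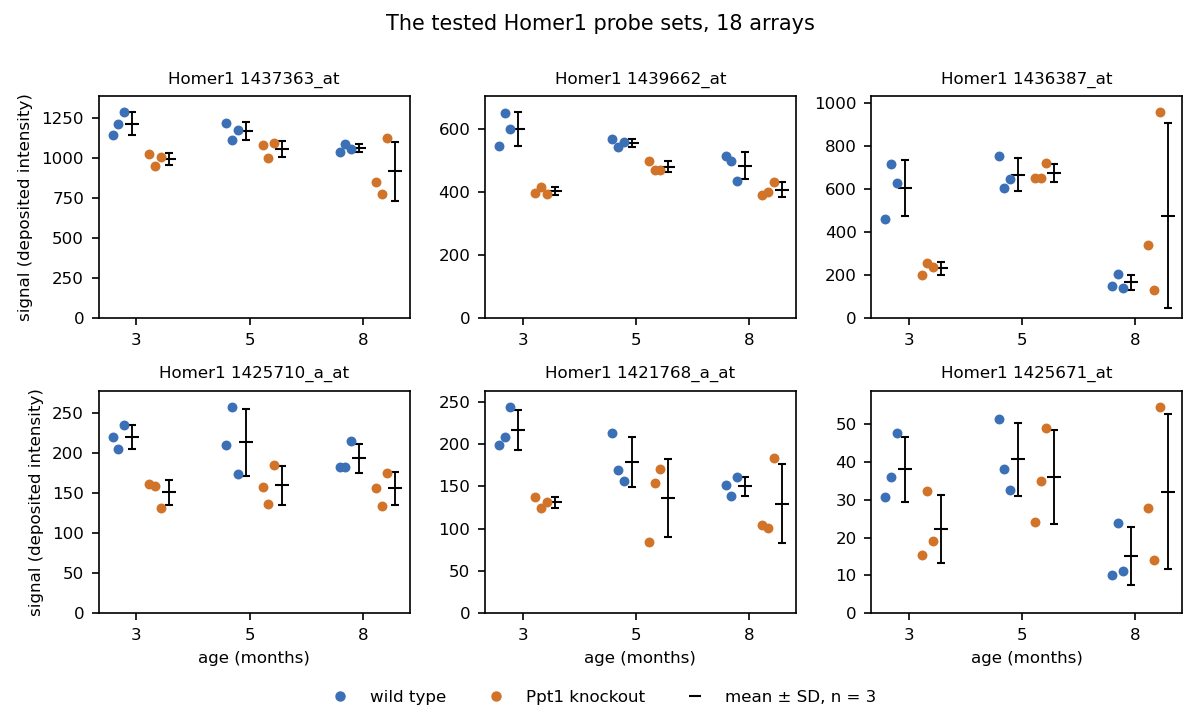
Signal of the 6 Homer1 probe sets by age, on linear axes; points are arrays, black bars the mean ± SD of 3 arrays. Probe set 1439662_at lies lower in the knockout at every age, while 1436387_at runs from below the wild type at 3 months (232 against 604) to above it on 2 of 3 arrays at 8 months.

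Homer1 probe set 1436387_at followed another course. It read 200.4, 258 and 238 in the 3-month knockout and 464, 719.6 and 629.8 in the 3-month wild type, without overlap. At 5 months the genotypes overlapped, with 651, 652 and 724 against 754, 605 and 646. At 8 months the wild type read 153, 208 and 142, while the knockout read 343, 130.1 and 957, that is, 1 array below every wild-type array of its age and 2 above them. The SD of the 8-month knockout was 429, against 29.2 to 129.9 in the other 5 groups.

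The differences for Homer1 1436387_at were -1.31 ± 0.36 at 3 months (adjusted p = 0.111), 0.02 ± 0.36 at 5 months and 0.96 ± 0.37 at 8 months (adjusted p = 0.0991), and none passed with all arrays. The change of the effect from 3 to 8 months passed, at 2.27 ± 0.52 (adjusted p = 0.0374). It was the 1 member among the 23 with such a call, and 0.718% of all tested probe sets were called in that direction. The effect was 1.64 without knockout replicate 3 (adjusted p = 0.00328), 3.11 without replicate 2 (adjusted p = 0.000376) and 2.32 without replicate 1 (adjusted p = 0.0569). The call was lost under 14 of 30 alternatives. At 8 months the difference was 0.33 without replicate 3, and it passed as higher without replicate 2 (1.81, adjusted p = 0.00042). Without replicates 1 and 2 it was 2.53, which rests on the 1 knockout array that read 957.

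Immediate early genes, induced by synaptic activity within minutes, were set beside this probe set. Of 25 on the list, 10 rose and 0 fell in the mean over ages, with a median of 0.29. Over all 12496 genes 8.39% passed as higher and 6.43% as lower, with a median of -0.009. Fos rose by 1.42 ± 0.16 (adjusted p = 1.51e-06), Dusp1 by 0.71 ± 0.10 (adjusted p = 3.08e-05), Junb by 0.62 ± 0.11 (adjusted p = 0.000467) and Ier2 by 0.59 ± 0.09 (adjusted p = 0.000216). At 3 months the difference was 1.46 for Fos and 0.21 for Egr1, and -1.31 for Homer1 1436387_at. The 25 genes ranged at that age from -0.41 (Nptx2) to 1.63 (Arc), with a median of 0.25. Of them 4 passed as higher and 0 as lower, against 0.912% and 0.336% of all genes. Within the 8-month knockout the summed signal of the 25 genes was 7596, 4298 and 10030.5 on replicates 1, 2 and 3, an order that the 343, 130.1 and 957 of 1436387_at shared. Of the 25 genes, 11 had that order and 14 another, among them Btg2 (243, 158 and 100.3). Egr1, named because it is among the genes most like this probe set, read 1012, 517 and 2235 on those arrays. Arc and Btg2 were chosen after their values were seen, and Arc read 56.6, 56.4 and 506. Their part in the Homer1 signal was not tested.

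With the mean of each group taken out, the genes most like 1436387_at across the 18 arrays were Atp2b2 (a calcium pump of the plasma membrane, r = 0.97), Egr1 (0.95) and Lrrk2 (0.94), among 12489 genes. The points include the 3 widely spread arrays of the 8-month knockout, and the correlations describe these arrays only. With the group means left in, they were 0.25, 0.63 and 0.57. Against the 25 immediate early genes the median correlation within groups was 0.55 for 1436387_at and 0.56 for 1437363_at. For the other 4 Homer1 probe sets it was 0.16 to 0.38. For 1436387_at the single genes ranged from -0.6 to 0.95, with 22 of 25 positive. Over all genes its median correlation was -0.02, with 48.5% positive.

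**Figure D4:**
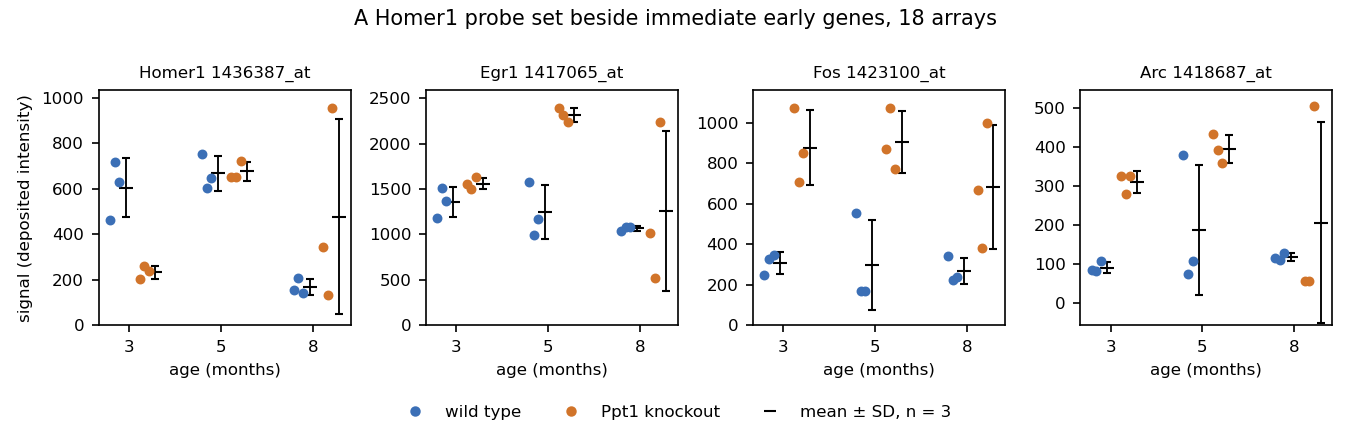
Signal of Homer1 1436387_at, Egr1, Fos and Arc by age, on linear axes; points are arrays, black bars the mean ± SD of 3 arrays. At 3 months Fos and Arc lie higher in the knockout while Homer1 1436387_at lies lower, and at 8 months the 3 knockout arrays are widely spread in all 4 panels.

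Homer2 encodes a second Homer protein of the long, coiled-coil kind. Its 3 probe sets differed by -0.19 to -0.23 in the mean over ages and did not pass. The brightest, 1424367_a_at, read 240, 252 and 213 in the 8-month knockout and 332 on each of the 3 wild-type arrays, without overlap. That fall passed (0.49 ± 0.16, adjusted p = 0.047), and the estimate moved little when single 8-month knockout arrays were left out (-0.42 to -0.59), though the call was then lost (adjusted p = 0.0739 to 0.0907). The call was also lost with quantile normalization, array weights, no filter or no variance trend, and without any single 8-month wild-type array. At 5 months the same probe set read 462, 291 and 247 against 316, 326 and 269.8 and overlapped. Probe set 1457671_at read 167, 168 and 299 in the 8-month knockout and 225, 252 and 334 in the wild type. Replicate 3 lay inside the wild-type range and the other 2 below it (-0.36 ± 0.17, adjusted p = 0.175).

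At 5 months 1 member passed, the Dlgap1 probe set above, where 0.566% of all tested probe sets were called lower. The groups did not overlap for 4 of the 23, all with the knockout below, against 10.1% of all tested probe sets. At 8 months 4 passed, 1 each of Dlg4, Dlg2, Shank3 and Homer2, all lower, against 5.91% of all tested probe sets. Without knockout replicate 1 of that age 0 passed, and without replicate 3 it was 7 lower. Without replicate 2 it was 1 lower and 1 higher, the latter Homer1 1436387_at. The 5.91% belongs to the main fit, and shares of all tested probe sets are not given for these 3 fits. Whether the member counts moved more than the whole array was therefore not tested. For the mean over ages, array-wide calls rose without replicate 3 and fell without replicate 1 or 2. Without replicates 1 and 2 together 1 knockout array of that age was left, and calls are not given. The groups did not overlap, with the knockout below, for 9 of the 23, against 14.3%. Medians of the 23 differences at the successive ages were -0.17, -0.12 and -0.24, where the medians of all tested probe sets were 0.006, -0.013 and -0.023. Of the 23 probe sets, 14 were negative at every age, 0 were positive at every age and 9 were mixed. These comparisons share arrays with the mean over ages and are given side by side only.

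The 8-month knockout arrays differed in how far the scaffold genes lay from the wild type. Against the mean of the 8-month wild-type arrays, the median of the 23 probe sets was -0.27 on knockout replicate 1, -0.32 on replicate 2 and -0.03 on replicate 3. Replicate 3 was the highest of the 3 for 17 of the 23. The summed signal of 12 microglia markers was 8445, 9817 and 5427 on replicates 1, 2 and 3, against 3531 to 3780 in the 8-month wild type, and that of 12 astrocyte markers was 38450.2, 37622 and 30563, against 21123 to 22049.6. Replicate 3 had the least of both glial signals. The summed signal of 10 excitatory neuron markers was 5348, 4459 and 5072 on the same arrays, highest on replicate 1, against 5542 to 5851 in the 8-month wild type. The part of the glial or neuronal signal in these differences was not tested.

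**Figure D5:**
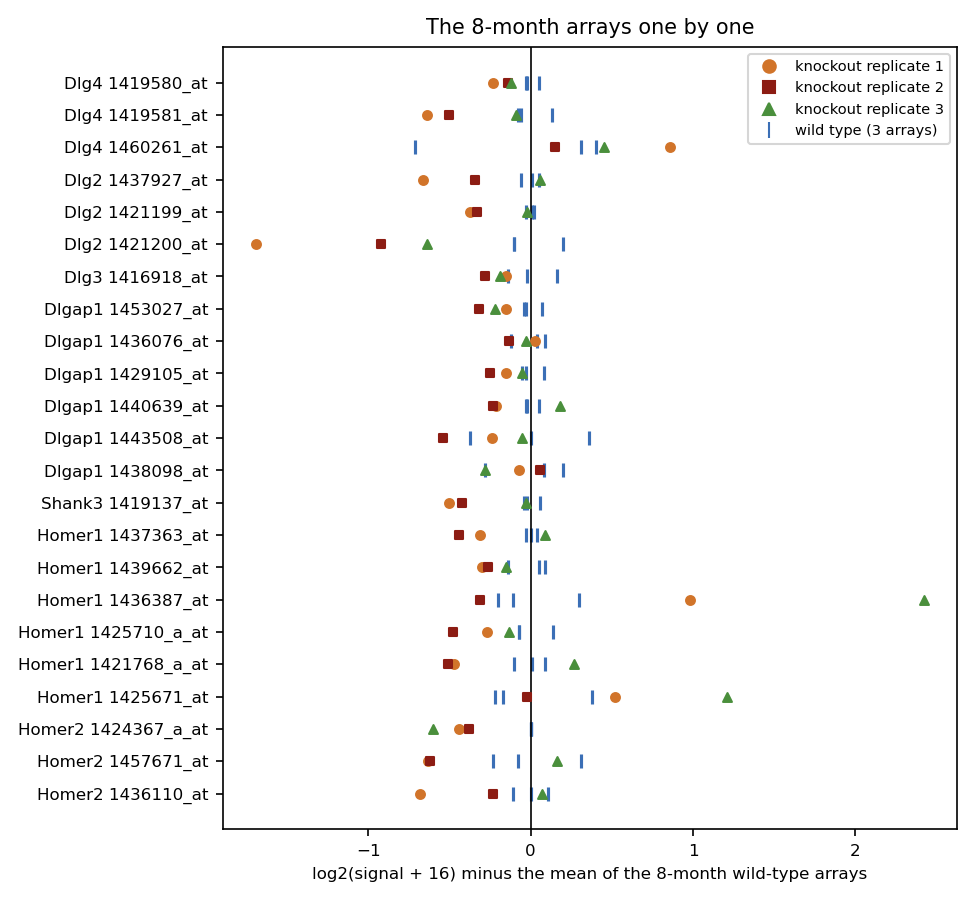
Each 8-month array against the mean of the 3 wild-type arrays of that age, for the 23 tested probe sets, on the log2(signal + 16) scale; symbols are single knockout arrays and blue ticks single wild-type arrays. Replicates 1 and 2 lie mostly left of 0 (medians -0.27 and -0.32) and replicate 3 nearer 0 (median -0.03), with Homer1 1436387_at far to the right of it.

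With age, 0 of the 23 probe sets passed within the wild type (limma, with 4 at an unadjusted p under 0.05, all lower), where 8 probe sets on the array, 0.0296%, passed. The 4 were of Homer1. The 8-month wild-type arrays lay below the 3-month arrays without overlap for 5 of the 23 probe sets, all of Homer1, against 6.93% of all tested probe sets. For 1436387_at the difference was -1.75 ± 0.36 (adjusted p = 0.149), for 1425671_at -0.81 ± 0.29 (adjusted p = 0.56), for 1421768_a_at -0.48 ± 0.20 (adjusted p = 0.679) and for 1439662_at -0.30 ± 0.08 (adjusted p = 0.377). Probe set 1425671_at read 10.2, 23.9 and 11.2 in the 8-month wild type, close to the control backgrounds of 12.4, 15.8 and 10.2 on those arrays. The difference of 1436387_at passed when only the wild-type groups of those ages were fitted (adjusted p = 4.3e-05). Within the knockout 0 of the 23 passed (3 at an unadjusted p under 0.05, all lower), where 5.62% of all tested probe sets did. Without knockout replicate 3 of 8 months, 5 passed, and the share of all tested probe sets in that fit is not given. The 3 were Dlg2 1421200_at (-0.66 ± 0.25), Dlg4 1419581_at (-0.31 ± 0.12) and Dlgap1 1429105_at (-0.19 ± 0.08).

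Agreement between probe sets of a gene was tested on their difference within each array, against the brightest probe set of the gene, by an exact permutation of the genotype labels within ages (8000 permutations, two-sided, smallest possible p 0.00025). Of 16 such differences 0 passed after Benjamini-Hochberg adjustment, and 3 had an unadjusted p under 0.05. By that exact permutation, the largest departure was Dlgap1 1440639_at, which lay 0.31 higher relative to 1453027_at in the knockout than in the wild type (p = 0.00375, adjusted p = 0.06). By the same exact test Dlg4 1419581_at lay lower relative to 1419580_at (-0.17, p = 0.0155, adjusted p = 0.124), and Homer1 1425710_a_at lay lower relative to 1437363_at (-0.18, p = 0.0333, adjusted p = 0.177). Homer1 1436387_at against 1437363_at averaged 0.13 (adjusted p = 0.869), made of -1.02 at 3 months, 0.16 at 5 months and 1.25 at 8 months, so its mean hid opposite departures.

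Probe sets of 1 gene did not always vary together. Within groups, over 18 arrays, the Homer1 probe sets 1436387_at and 1425671_at correlated at 0.82 and 1436387_at and 1437363_at at 0.88, whereas 1439662_at and 1425710_a_at gave -0.16. The Dlg4 probe sets 1419580_at and 1419581_at correlated at 0.66. The 2 brightest Homer2 probe sets gave -0.07, and the 2 brightest Dlgap1 probe sets 0.27. These are descriptions over arrays that share a scaling and, at 8 months, the spread of the knockout.

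By the same measure, the gene most like Shank3 was Tyro3 (a receptor tyrosine kinase, r = 0.93), followed by R3hdm1 (0.92) and Unc13c (0.91). For Homer1 1437363_at they were Dnajb1 (0.93), Cdc7 (0.93) and Rgs8 (0.92), and for Dlg2 Dzip1 (0.91), Faf2 (0.91) and Dst (0.90). Dlg4 was closest to Srrm3 (0.88), L1cam (0.86) and Tysnd1 (0.85), and Homer2 to Zfp385a, Blcap and Nucks1 (0.88 each). Dlgap1 (Ppm1l, Apba2 and Ubr2) and Dlg3 (Kctd14, Gnb1l and Sfxn1) had no gene above 0.85.

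Partners of the scaffolds were counted on 1 probe set a gene, the brightest, in the mean over ages, where 6.43% of 12496 genes passed as lower and 8.39% as higher. None of the partners in the 5 postsynaptic lists rose. Among 21 tested relatives and binding partners of the scaffolds 6 fell, with a list median of -0.10. They included Lin7b, a PDZ protein that joins guanylate kinase scaffolds (by 0.34 ± 0.06, adjusted p = 0.00043), Magi1 (by 0.31 ± 0.07, adjusted p = 0.00577), Cnksr2, a partner of PSD-95 (by 0.34 ± 0.08, adjusted p = 0.00666), and Tanc2 (by 0.26 ± 0.06, adjusted p = 0.00777).

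Of 18 glutamate receptor genes 6 fell, with a median of -0.12. Cnih2, an auxiliary protein of AMPA receptors, fell by 0.34 ± 0.05 (adjusted p = 0.000213), the AMPA receptor subunits Gria2 and Gria3 by 0.17 ± 0.04 and 0.28 ± 0.06 (adjusted p = 0.00264 and 0.00359), and Grm5, the metabotropic receptor that Homer binds, by 0.23 ± 0.05 (adjusted p = 0.00628). Of 16 genes of postsynaptic signalling 6 fell (median -0.08), among them Nrgn, which encodes the calmodulin-binding neurogranin (by 0.38 ± 0.05, adjusted p = 4.9e-05), Sipa1l1, Kalrn and Camk2b (by 0.26, 0.23 and 0.16). Of 18 genes of postsynaptic adhesion 5 fell (median -0.10), among them Lrrtm2, Lrrtm3, Lrrtm4 and Lrrc4b, by 0.20 to 0.32.

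A list of enzymes that add palmitate to proteins or remove it, among them those of PSD-95, had 14 tested genes, of which 2 fell (median -0.10). They were Abhd17a, a cytoplasmic enzyme that removes palmitate from PSD-95 (by 0.20 ± 0.05, adjusted p = 0.00813), and Zdhhc14, a palmitoyltransferase (by 0.18 ± 0.05, adjusted p = 0.0155).

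Markers of cell types moved with genotype as well. Of 10 excitatory neuron markers 7 fell and 0 rose (median -0.21), among them Tbr1, a cortical transcription factor (by 0.63 ± 0.08, adjusted p = 1.98e-05), and the vesicular glutamate transporter Slc17a7 (by 0.23 ± 0.05, adjusted p = 0.00426). Their summed signal lay at 5222 to 5579.9 in the knockout and 5857 to 5999 in the wild type at 3 months, 4912 to 5160.4 against 5782 to 5888 at 5 months, and 4459 to 5348 against 5542 to 5851 at 8 months. The ranges did not overlap at any age. Of 15 general neuron markers 3 fell (Tubb3, Syt1 and Uchl1, by 0.15 to 0.19), and of 10 GABAergic markers 2 fell (Vip and Pvalb).

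Of 12 astrocyte markers 9 rose and 0 fell, led by the filament gene Gfap (2.32 ± 0.06, adjusted p = 1.37e-16), and of 12 microglia markers 8 rose, with Mpeg1 at 2.17 ± 0.11 (adjusted p = 4.42e-12), and 1 fell, P2ry12 (by 0.55 ± 0.09, adjusted p = 0.000275). The summed microglia signal was 4538 to 4861 in the knockout and 2777 to 3035 in the wild type at 3 months. None of 9 oligodendrocyte markers passed in the mean over ages, with a list median of 0.02. No marker of these lists was at background on every array. In bulk RNA, fewer excitatory neurons and less scaffold RNA in each neuron cannot be told apart, and the part of the cell makeup in the falls of the scaffold genes was not tested.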

How the data were processed

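Total RNA of 18 samples was measured on 1-colour Affymetrix arrays, 3 for each genotype and age. The authors deposited linear intensities per probe set, with the trimmed mean (2% off each end) at 150 on every array; the software behind them is not given in the sources used here. Of 45101 probe sets, 64 controls and the dimmest 40% were left out, and 27022 with a mean log2 of at least 5.36 were tested. Signals of different probe sets are not compared with each other.

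log2(signal + 16) was fitted with limma 3.58.1 in R 4.3.3 on all 18 arrays, with 6 groups, an additive sex term and a variance trend. Tests were two-sided with Benjamini-Hochberg adjustment over all 27022 probe sets and a threshold of 0.05. Agreement between probe sets used an exact permutation of genotype within ages. The fit was tested on simulated data. Background is the 95th percentile of 27 bacterial control probe sets on each array. The number of arrays limits the precision.

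The genes and lists were chosen with earlier results of these data known. Named genes are all members, Ppt1, up to 4 genes with the smallest p among those past the threshold in each list, and the 3 genes most like each main or Homer1 probe set. Arc, Btg2, Nptx2, Zdhhc5, P2ry12, Gjb6, Cldn11, Mobp, Snap25 and the cochlea markers fall outside that rule and were named after their values were seen. Alternatives changed the normalization, pseudocount, filter, covariate, variance model, array weights, choice of probe sets and samples. Promoter windows came from RefSeq (GRCm38.p6).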

Additional observations from a re-analysis of the deposited data

Results flagged for a closer look

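The effect of the knockout on Homer1 1436387_at differed between 8 and 3 months by 2.27 on the log2 scale (limma interaction, adjusted p = 0.0374). In the other lists 8 genes passed the same test. Zdhhc5, a palmitoyltransferase, differed between those ages by 0.94 (adjusted p = 0.0338), and by 0.93 without the 8-month knockout replicates 1 and 2. Its call was lost without replicate 1 (0.97, adjusted p = 0.0514) or replicate 2 (0.89, adjusted p = 0.0977) alone. Its probe set 1426311_s_at read 103, 118 and 92.5 in the knockout and 165, 167 and 182 in the wild type at 3 months, and 144, 160.1 and 152 against 153, 128 and 88.6 at 8 months. Btg2, an immediate early gene, differed by -1.21 (adjusted p = 0.0358), and by -1.85 without replicates 1 and 2 together. Without replicate 2 alone it did not pass (-1.27, adjusted p = 0.0712). Its probe set 1416250_at read 296, 241 and 249 against 116, 98.9 and 76.2 at 3 months, and 243, 158 and 100.3 against 143, 128 and 155 at 8 months.

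The effect on 4 astrocyte markers was larger at 8 than at 3 months, by 1.39 for Gfap (adjusted p = 0.000379), 0.89 for Aqp4 (adjusted p = 0.00519), 1.5 for Vim (adjusted p = 0.00874) and 1.05 for Gjb6 (adjusted p = 0.025). Without the 8-month knockout replicates 1 and 2 these were 0.97, 0.65, 0.75 and 0.58. For 2 oligodendrocyte markers the difference between ages was 1.18 for Cldn11 (adjusted p = 0.00442) and 0.45 for Mobp (adjusted p = 0.0195), and 0.84 and 0.36 without those arrays. Without replicate 2 alone Gjb6 (adjusted p = 0.0551) and Mobp (adjusted p = 0.0735) did not pass. Leaving out these arrays for these genes was chosen after the data were seen.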

How the results depend on the processing

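Of 1649 alternative values for 67 single results, 1461 kept their direction and side of the threshold, 93 lost the threshold, 75 gained it and 20 changed sign. Among them, leaving out 8-month knockout arrays was applied to 12 results after the data were seen. The falls of Dlgap1 1453027_at, Homer1 1439662_at and Homer1 1425710_a_at in the mean over ages, and of Homer1 1439662_at at 3 months, passed under every alternative run. Between 3 arrays a group, small differences in dim probe sets are hard to see. No paired analysis was possible because the replicate numbers only follow accession order and mark no shared animal or batch.

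For the mean over ages, 6 member probe sets passed, against 10 with array weights, 3 with 1 probe set a gene, and 4 to 10 when arrays were left out. The whole array gave 3418, against 4750 with array weights and 2023 with 1 probe set a gene. Fits with 1 probe set a gene tested 7 members, against 23 in the main fit, so those counts are not a like-for-like loss. Array-wide calls also fell without 8-month knockout replicate 2 and rose without replicate 3. Array-wide numbers are not given for arrays left out. At 3 months 1 passed, against 5 with array weights or only the groups compared, 0 with 1 probe set a gene, and 1 to 4 with arrays left out. The whole array gave 258, against 668 with array weights, 468 with only the groups compared and 191 with 1 probe set a gene. At 5 months 1 passed, against 0 without the variance trend and 0 to 1 with arrays left out. The whole array gave 595, and 393 without the variance trend. At 8 months 4 passed, against 1 with no filter or no variance trend, 2 with 1 probe set a gene or only the groups compared, and 0 to 7 with arrays left out. Array-wide calls in the main fit and these 4 settings were 3147, 2591, 2242, 1757 and 1185. For the effect at 8 against 3 months 1 passed, against 0 with no filter, no variance trend, the robust variance model, 1 probe set a gene or only the groups compared, and 0 to 2 with arrays left out. The whole array gave 282, and in those settings 161, 0, 229, 171 and 175. For 8 against 3 months in the wild type 0 passed, against 1 with array weights or only the groups compared, and 0 to 1 with arrays left out. Array-wide calls rose from 8 to 51 and 73 in those 2 settings. In the knockout 0 passed, against 1 with array weights and 0 to 5 with arrays left out. The whole array gave 1519, and 3006 with array weights. For agreement 0 passed, against 1 with pseudocount 64 and 0 to 1 with arrays left out.

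The sign changes all came from leaving out arrays, and the cause was not tested. In the mean over ages Dlg4 1460261_at ranged from -0.02 to 0.16, Homer1 1436387_at from -0.32 to 0.41 (0.17 without 8-month knockout replicate 2), Homer2 1457671_at from -0.27 to 0.01, and Homer1 1425671_at from -0.13 to 0.24 (with 0.02, 0.03, 0.12, 0.02, 0.05 and 0.04 among its single-array values). At 8 months Homer1 1437363_at ranged from -0.38 to 0.08 and Homer2 1457671_at from -0.61 to 0.22, and Homer1 1421768_a_at was 0.33 without 8-month knockout replicates 1 and 2 and -0.47 without replicate 3. For 8 against 3 months in the knockout, Dlg4 1419581_at ranged from -0.47 to 0.05, Shank3 1419137_at from -0.31 to 0.13, Homer1 1437363_at from -0.29 to 0.17, Homer1 1436387_at from -0.11 to 2.08 and Homer2 1457671_at from -0.52 to 0.30. The unequal change of Homer1 1436387_at ranged from -0.05 to 0.32.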
